A study of Homo sapiens with 4 samples.

Results

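Orphan and adhesion G protein-coupled receptors were taken from an RNA-seq count table of A549 cells, an established human lung adenocarcinoma line, as all protein-coding genes whose GENCODE 29 symbol is GPR with a number, GPRC5 or GPRC6 with a letter, or begins with ADGR. This gave 113 genes of 58735 in the table, made up of 29 adhesion receptors, 5 GPRC5 and GPRC6 receptors and 79 numbered GPR genes. Cells carried a lentiviral CRISPR vector, lentiCRISPRv2-hygro, with a guide against UHRF1 (UHRF1 KO, 2 libraries) or with a non-targeting guide (control, 2 libraries), and both groups went through hygromycin selection. UHRF1 recognises hemimethylated DNA after replication and brings in the maintenance methyltransferase DNMT1, and the study asked what changes in expression when it is targeted. Whether the cells were pools or clones, how long after infection they were taken and whether replicate libraries stem from different cultures is not given in the labels. The p-values below therefore rest on a between-library spread that could be technical alone.

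G protein-coupled receptors cross the membrane 7 times and pass a signal to heterotrimeric G proteins inside the cell. Adhesion receptors carry a long extracellular part that binds matrix or neighbouring cells. Its link to the membrane part is usually cut at an autoproteolysis site, which lies next to a tethered agonist. Numbered GPR genes are those named before a ligand was known: some have since been paired with lipids, protons or peptides, and others remain orphans.

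Total counts were 20020366 and 23977168 in UHRF1 KO and 18604598 and 19222886 in control, so 1 count is worth 0.0401 to 0.0560 CPM (read counts scaled to library size, after TMM). UHRF1 itself was at 39.0 and 40.1 CPM in UHRF1 KO, against 97.5 and 98.7 CPM in control, 2.47-fold lower (edgeR adjusted p = 3.92e-20), which measures transcript and not protein. Of 5 epithelial markers, KRT8, KRT18, KRT19 and CDH1 were called lower, with KRT8 at a mean of 2103 CPM in UHRF1 KO and 2673 CPM in control, and EPCAM was called higher, at 9.96 CPM in UHRF1 KO and 2.21 CPM in control. Some of these receptors are best known from leukocytes, so 7 leukocyte markers were set beside them. CD3E and MS4A1 had 0 counts in every library and LYZ had 1 count in all, while CD14 and ITGAM were called higher and PTPRC had 10 and 20 counts in UHRF1 KO and 0 in both controls. Their summed level was 10.5 and 12.7 CPM in UHRF1 KO and 6.27 and 4.90 CPM in control. Of 3 endothelial markers, PECAM1 reached 29.2 and 30.5 CPM in UHRF1 KO, against 0.392 and 0.108 CPM in control, VWF had 11 counts in each UHRF1 KO library and 1 and 0 in control, and CDH5 had 3 counts in all. Of 3 fibroblast and mural markers, COL1A1 and PDGFRB were called higher and DCN, not tested, had 11 counts in each UHRF1 KO library and 0 in both controls. All 3 neural and glial markers (SNAP25, RBFOX3, GFAP) were called higher, and the erythroid marker HBB had 3 counts in all. The part of other cells in the receptor results was not tested, and in bulk RNA fewer cells of a type and less RNA per cell cannot be told apart.

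Few of the 113 receptors were well expressed. In the UHRF1 KO libraries 84 and 89 of them had at least 1 count, against 71 and 75 in the control libraries. Over all 58735 genes of the table the numbers rose as well, with 28486 and 29341 in UHRF1 KO and 24600 and 24504 in control. Of the 113 receptors 23 had 0 counts in all 4 libraries, where 3 counts would be 0.120 to 0.168 CPM. The filter on low counts kept 57 for testing. The highest level per length in both groups was that of GPRC5A, a retinoic acid-induced receptor of lung epithelium, with 45.2 CPM per kilobase of exons in UHRF1 KO and 24.9 in control. In control it was followed by ADGRG1 at 21.98, ADGRG6 at 18.1, GPR107 at 16.6, GPR108 at 10.8 and ADGRE5 at 10.1 CPM per kilobase. In UHRF1 KO the order after GPRC5A was ADGRG1 at 24.9, GPR107 at 18.4, ADGRE5 at 14.1, GPR108 at 12.7 and ADGRG6 at 12.4 CPM per kilobase. ADGRG6 thus held rank 6 in UHRF1 KO, next to GPR108, and rank 3 in control. Together the 113 receptors summed to 1506 and 1512 CPM in UHRF1 KO and 1180 and 1208 CPM in control, and most of that gap lay in the GPRC5 and GPRC6 genes, which summed to 488 and 498 CPM in UHRF1 KO and 272 and 274 CPM in control.

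**Figure D1:**
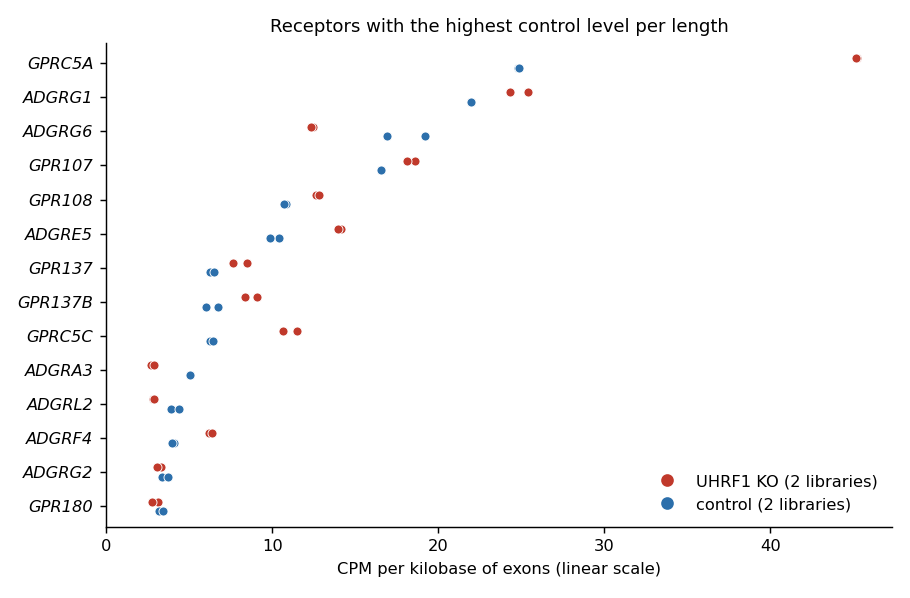
Level per length (CPM per kilobase of exons, linear axis) of the 14 receptors ranked highest in control, with 1 point for each of 2 UHRF1 KO libraries and 2 control libraries. GPRC5A lies near 45.2 in UHRF1 KO and 24.9 in control, and ADGRG6, ADGRA3 and ADGRL2 are among those lower in both UHRF1 KO libraries.

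Receptor transcripts were more often higher than lower in UHRF1 KO. By edgeR's quasi-likelihood test with Benjamini-Hochberg adjustment over all 17030 genes tested, 32 of the 57 tested receptors were called higher and 8 lower at an adjusted p under 0.05, while 32.0% of all genes tested were called higher and 30.1% lower. At least 2-fold, 19 of the 57 receptors were higher and 2 lower, against 15.4% and 2.54% of all genes. Of the 13715 protein-coding genes tested, 32.0% were called higher and 34.6% lower, and 13.3% and 2.14% by at least 2-fold. The median log2 fold change was 0.47 over the tested receptors and 0.02 over all genes. Both UHRF1 KO libraries lay above both controls in 35 of the 57 receptors and below them in 13, beside 7075 and 6547 of all genes tested. These counts depend in part on the filter. Of the 57, 10 reached its minimum in UHRF1 KO alone, so these 10 had to lie higher in UHRF1 KO. They were GPR34, GPR35, GPR78, GPR84, GPR132, GPR146, GPR158, GPR173, GPR179 and GPR183, of which 8 were called higher. Another 5, among them ADGRB1, ADGRG3, ADGRV1 and GPRC5D, passed through the UHRF1 KO libraries and 1 control, which favours a rise without fixing it. Of those 5, 4 were called higher, beside 46.0% of all 619 genes that passed in that way. Of the 41 that reached the filter's minimum in all 4 libraries, 20 were higher and 8 lower, which is 48.8% and 19.5%, beside 27.3% and 34.5% of all 14480 genes that did so. By at least 2-fold, 7 of the 41 were higher (17.1%) and 2 lower (4.88%), beside 7.87% and 2.10% of those genes. In those 41 the median was 0.18, beside -0.04. The split also depends on scaling: with GC content and exon length trends removed and each library recentred on its mean gene, 24 receptors (42.1%) were called higher and 17 (29.8%) lower, beside 19.9% and 50% of all genes, while the median of all genes shifted by -0.28 and that of the receptors became 0.15.

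**Figure D2:**
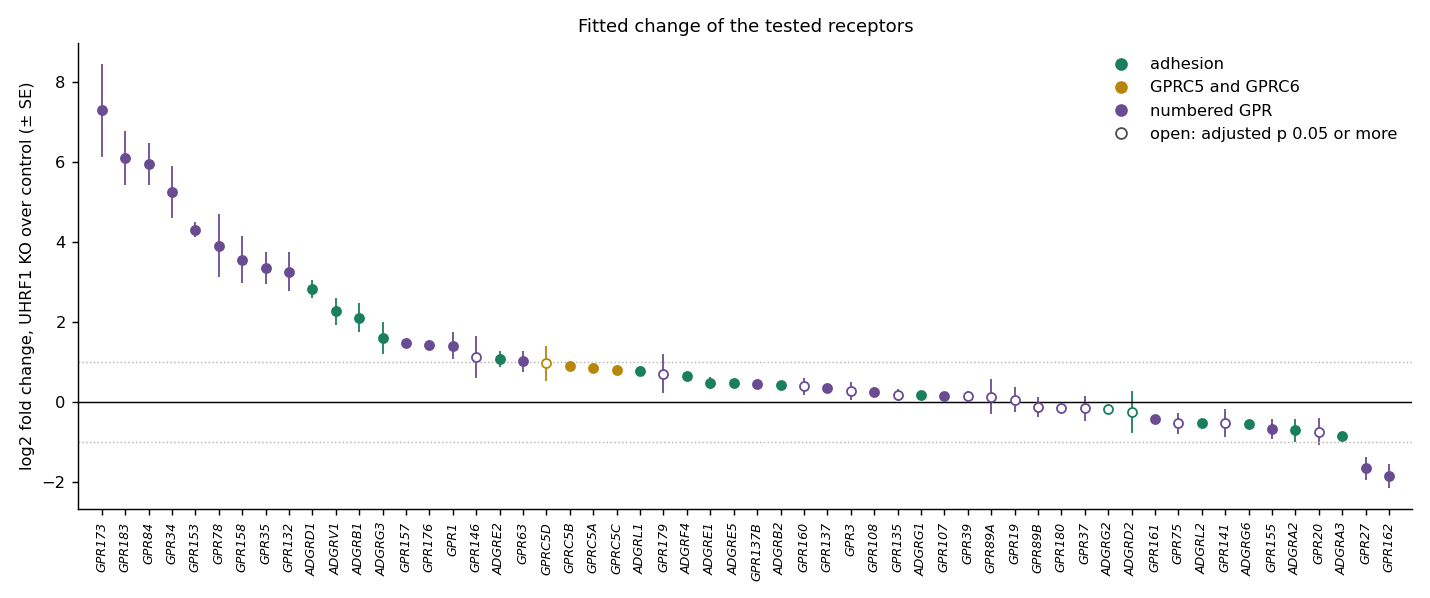
Fitted log2 fold change of UHRF1 KO over control (± SE) for 56 of the 57 tested receptors in order of size, coloured by class, with open points for those not called. Of the 57, 32 were called higher and 8 lower (24 and 17 with libraries recentred), and dotted lines mark 2-fold. The value of GPR173 depends on the fit, since it had 0 counts in both controls.

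The 3 largest fitted rises and the largest fall among receptors with an entry in the promoter table are shown by the 250 bases before their start, because UHRF1 acts through CpG methylation and the 4 windows differ widely in CpG content. Sequences are RefSeq's (GRCh38.p14), on the gene's strand from 5′ to 3′, with each CpG in capitals. No methylation was measured in these libraries.
GPR173: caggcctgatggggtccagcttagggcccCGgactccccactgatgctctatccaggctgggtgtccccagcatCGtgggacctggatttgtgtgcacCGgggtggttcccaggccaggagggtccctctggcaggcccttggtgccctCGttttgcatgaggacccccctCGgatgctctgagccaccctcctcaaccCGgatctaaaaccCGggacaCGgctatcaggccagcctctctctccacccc
GPR183: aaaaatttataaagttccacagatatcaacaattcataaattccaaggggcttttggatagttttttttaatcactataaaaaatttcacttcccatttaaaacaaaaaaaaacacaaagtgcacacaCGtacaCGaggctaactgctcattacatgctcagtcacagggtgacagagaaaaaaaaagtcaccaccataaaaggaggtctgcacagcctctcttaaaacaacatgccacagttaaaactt
GPR153: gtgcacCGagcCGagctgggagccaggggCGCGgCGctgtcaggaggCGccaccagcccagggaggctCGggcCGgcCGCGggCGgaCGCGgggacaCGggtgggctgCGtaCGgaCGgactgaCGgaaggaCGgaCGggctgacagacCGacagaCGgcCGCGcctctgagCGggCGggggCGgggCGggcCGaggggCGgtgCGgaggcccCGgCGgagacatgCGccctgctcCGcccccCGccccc
ADGRA3: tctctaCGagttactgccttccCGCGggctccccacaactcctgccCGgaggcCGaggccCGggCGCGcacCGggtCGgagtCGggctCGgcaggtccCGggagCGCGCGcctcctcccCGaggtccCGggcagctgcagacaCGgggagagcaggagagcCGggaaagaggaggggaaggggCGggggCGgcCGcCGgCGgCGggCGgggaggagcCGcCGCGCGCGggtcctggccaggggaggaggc
The GPR173 window (chrX:53048539-53048788, plus strand) holds 8 CpG and that of GPR183 (chr13:99307400-99307649, minus strand) holds 2. That of GPR153 (chr1:6261099-6261348, minus strand) holds 36 CpG and that of ADGRA3 (chr4:22516067-22516316, minus strand), the receptor that was lower, holds 32. Over 300 bases, from 250 before to 50 after the start, the median of all 22198 protein-coding promoters in the table was 21 CpG. For GPR173 and GPR183 only UHRF1 KO reached the filter's minimum, so a rise was the only direction open to them. Whether CpG content bears on the changes was not tested. The table held 82 of the 113 receptors and 12 of the 19 that were called at least 2-fold higher, so no comparison of CpG content between groups of receptors was made. A search of the 4 windows on both strands for the AP-1 motif TGANTCA found none, and the NF-kB motif (10 letters, found in 12.7% of those protein-coding promoters at 300 bases, where TGANTCA was in 6.15%) was found in that of GPR173 alone.

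Adhesion receptors went both ways. Of 29, 17 were tested, and 11 were called higher and 4 lower (DESeq2 called 8 higher and 3 lower), beside 32.0% and 30.1% of all genes tested. There were 5 rises and 0 falls of at least 2-fold, beside 15.4% and 2.54% of all genes. With libraries recentred 7 were higher and 6 lower. Those 5 rises were of genes below 4 CPM in both controls. ADGRD1 (GPR133, chromosome 12, 130953907 to 131141469), known for driving cyclic AMP production, was at 7.27 and 7.99 CPM in UHRF1 KO, against 1.12 and 1.02 CPM in control. The rise was 7.11-fold, or 2.83 on the log2 scale (SE 0.224, edgeR adjusted p = 7.79e-13). ADGRD1-AS1, a long noncoding RNA on the opposite strand that shares 109 exon bases with it, had a log2 fold change of 2.91, and since the use of strand in counting is not given, reads in that stretch cannot be assigned. ADGRV1, the giant receptor altered in Usher syndrome, had 68 and 72 counts in UHRF1 KO and 15 and 8 in control, or 3.27 and 2.89 CPM against 0.840 and 0.431 CPM. ADGRB1 (BAI1), which binds phosphatidylserine on dying cells, was at 2.31 and 2.45 CPM in UHRF1 KO, against 0.728 and 0.377 CPM in control. Both genes passed the filter through UHRF1 KO and 1 control, which favours a rise. Their log2 fold changes were 2.27 (SE 0.335) for ADGRV1 and 2.11 (SE 0.37) for ADGRB1, with edgeR adjusted p of 5.19e-07 and 9.56e-06. Without control replicate 1 these values were 2.80 and 2.62, and without control replicate 2 they were 1.84 and 1.68.

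Receptors of the ADGRE group, which carry EGF-like repeats and are best known from leukocytes, were called higher in 3 of 3 tested cases, beside 32.0% of all genes tested. However, with libraries recentred the value of ADGRE5 was 0.00 and that of ADGRE1 was 0.15, neither of them called. ADGRE2 was at 7.36 and 5.38 CPM in UHRF1 KO, against 2.41 and 3.55 CPM in control, or 2.11-fold higher (edgeR adjusted p = 3.05e-05). It shares 15.7% of its exon bases with ZNF333 on the opposite strand, whose log2 fold change was -0.52. ADGRE5 (CD97), the receptor for CD55, was at 76.3 and 75.3 CPM in UHRF1 KO and 56.2 and 53.0 CPM in control, a log2 fold change of 0.47 (SE 0.055). ADGRE1 reached 7.55 and 8.07 CPM in UHRF1 KO and 5.83 and 5.44 CPM in control, and its edgeR adjusted p of 0.00710 was 0.0611 when control replicate 2 was left out and 0.0606 when UHRF1 KO replicate 2 was. ADGRE3 had 0 counts in all libraries.

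The ADGRG group holds 3 neighbours on chromosome 16, within 57542421 to 57689378, ADGRG5, ADGRG1 and ADGRG3. ADGRG3, known from neutrophils, was at 1.64 and 1.57 CPM in UHRF1 KO, against 0.504 and 0.538 CPM in control (log2 fold change 1.61, SE 0.4, edgeR adjusted p = 8.05e-04). ADGRG1 (GPR56), a receptor for collagen III and transglutaminase that lies 2607 bases from ADGRG3, was at 210.5 and 220.1 CPM in UHRF1 KO and 190.3 and 190.4 CPM in control. The difference of 0.18 on the log2 scale passed the test (edgeR adjusted p = 2.24e-04) but was -0.22 with libraries recentred. ADGRG5 had 10 and 9 counts in UHRF1 KO and 2 and 11 in control and was not tested. Elsewhere, ADGRG6 (GPR126), known for Schwann cell myelination, was at 106 and 104 CPM in UHRF1 KO and 143 and 163 CPM in control, or 1.46-fold lower (log2 fold change -0.54, SE 0.05, edgeR adjusted p = 5.03e-11).

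Both tested members of the ADGRA group were called lower, beside 30.1% of all genes tested. ADGRA3 (GPR125) was at 24.8 and 26.7 CPM in UHRF1 KO, against 46.9 and 47.0 CPM in control, 1.82-fold lower (log2 fold change -0.86, SE 0.071, edgeR adjusted p = 2.17e-12). ADGRA2 (GPR124), a co-receptor for WNT7 signals in brain vessels, was at 1.40 and 1.45 CPM in UHRF1 KO and 2.13 and 2.53 CPM in control. Its edgeR adjusted p of 0.0330 became 0.152 without control replicate 2 and 0.107 and 0.101 without either of the UHRF1 KO libraries, and 23.1% of its exon bases are shared with BRF2 on the opposite strand. Latrophilins, which bind teneurins and FLRT proteins, split: ADGRL1 was at 13.5 and 12.6 CPM in UHRF1 KO and 7.62 and 7.64 CPM in control (log2 fold change 0.77), while ADGRL2 was at 21.7 and 22.5 CPM in UHRF1 KO and 30.1 and 33.9 CPM in control (log2 fold change -0.53). ADGRL3 was too low to be tested, with 11 and 10 counts in UHRF1 KO and 1 and 2 in control, a ratio of 5.58 (95% counting interval 1.67 to 29.2). ADGRB2 and ADGRF4 were called higher by log2 fold changes of 0.43 and 0.65 (0.01, not called, and 0.38 with libraries recentred). ADGRG2 (-0.17) and ADGRD2 (-0.25) did not pass the test, with edgeR adjusted p of 0.0511 and 0.702. With libraries recentred ADGRG2 (-0.18) was called lower and ADGRD2 (-0.69) was not called. Of the 12 untested adhesion receptors, ADGRA1, ADGRB3, ADGRE3 and ADGRG4 had 0 counts, and the other 8 had between 3 (ADGRF1, ADGRF5 and ADGRG7) and 37 (ADGRF3) in all 4 libraries.

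CELSR1, CELSR2 and CELSR3, the flamingo receptors of planar cell polarity, belong to the adhesion family but fall outside the symbol rule. All 3 were called lower, beside 30.1% of all genes tested. CELSR2 was at 23.4 and 22.3 CPM in UHRF1 KO, against 46.4 and 47.2 CPM in control (log2 fold change -1.04, edgeR adjusted p = 3.67e-14), and CELSR1 and CELSR3 had log2 fold changes of -0.52 and -0.45. The 3 were called lower in every alternative run without a minimum fold, and CELSR2 alone was at least 2-fold lower.

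The GPRC5 receptors are class C proteins with a short extracellular part, and GPRC5A is a tumour suppressor in mouse lung. Of 5 genes 4 were tested, and 3 were called higher and 0 lower, beside 32.0% and 30.1% of all genes tested. Fitted values were above 0 for all 4 in edgeR, DESeq2 and limma-voom, which fit the same 4 libraries. GPRC5D, the one not called, passed the filter through UHRF1 KO and 1 control, which favours a rise. GPRC5A (chromosome 12, 12890782 to 12917937) was at 382 and 381 CPM in UHRF1 KO, against 209 and 210.0 CPM in control. GPRC5C was at 85.2 and 91.8 CPM in UHRF1 KO, against 50.2 and 51.3 CPM in control, and GPRC5B was at 20.6 and 23.4 CPM, against 11.4 and 12.1 CPM. The changes of these 3 were close in size, with log2 fold changes of 0.86 (SE 0.036), 0.80 (SE 0.056) and 0.91 (SE 0.102). Their edgeR adjusted p were 4.37e-20, 2.70e-14 and 2.53e-09. With libraries recentred the log2 fold changes were 0.63, 0.39 and 0.63, and all 3 were still called. GPRC5B shares 26.7% of its exon bases with IQCK on the opposite strand, whose log2 fold change was 0.07. GPRC5D, known from plasma cells and 22838 bases from GPRC5A, had 22 and 25 counts in UHRF1 KO and 10 and 9 in control (log2 fold change 0.97, edgeR adjusted p = 0.0534). GPRC6A had 1 count in all.

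Of 12 receptors for lipids and metabolites 5 had 0 counts in all libraries, 3 fell under the filter and 4 were tested, and all 4 of these had passed it through the UHRF1 KO libraries alone. GPR84, a receptor for medium-chain fatty acids of myeloid cells (chromosome 12, 54362445 to 54364487), had 67 and 106 counts in UHRF1 KO and 2 and 0 in control. GPR183, which guides lymphocytes along oxysterol gradients (chromosome 13, 99294530 to 99307405), had 49 and 56 counts in UHRF1 KO and 0 and 1 in control. GPR34, a receptor for lysophosphatidylserine on the X chromosome, had 33 and 73 counts in UHRF1 KO and 0 and 2 in control. With so few control counts the size of each rise is loose: the ratio of levels was 69.0 for GPR84 (95% counting interval 18.8 to 574), 83.7 for GPR183 (14.7 to 3337) and 42.2 for GPR34 (11.4 to 353). The intervals cover counting error only, and edgeR adjusted p were 1.66e-11, 1.69e-09 and 2.03e-08. Leaving out the control library without counts of the gene, the fitted log2 values of 5.95, 6.11 and 5.24 became 4.98, 5.26 and 4.32; leaving out the other put the controls at 0. GPR35, proposed to sense kynurenic acid and found in gut epithelium and leukocytes, was at 2.89 and 2.81 CPM in UHRF1 KO, against 0.280 and 0.269 CPM in control. Its log2 fold change was 3.35 (SE 0.399), or 10.2-fold, and 12.9% of its exon bases are shared with CAPN10 on the same strand, whose log2 fold change was -0.29. Neighbours on the same chromosomes stayed low: GPR18, 32786 bases from GPR183, had 4 and 1 counts in UHRF1 KO and 0 and 1 in control, and GPR82, 26878 bases from GPR34, had 0 and 4 in UHRF1 KO and 0 and 1 in control. GPR31, GPR32, GPR42, GPR119 and GPR174 were the 5 at 0, and GPR17 and GPR55 had 15 and 6 counts in all.

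**Figure D3:**
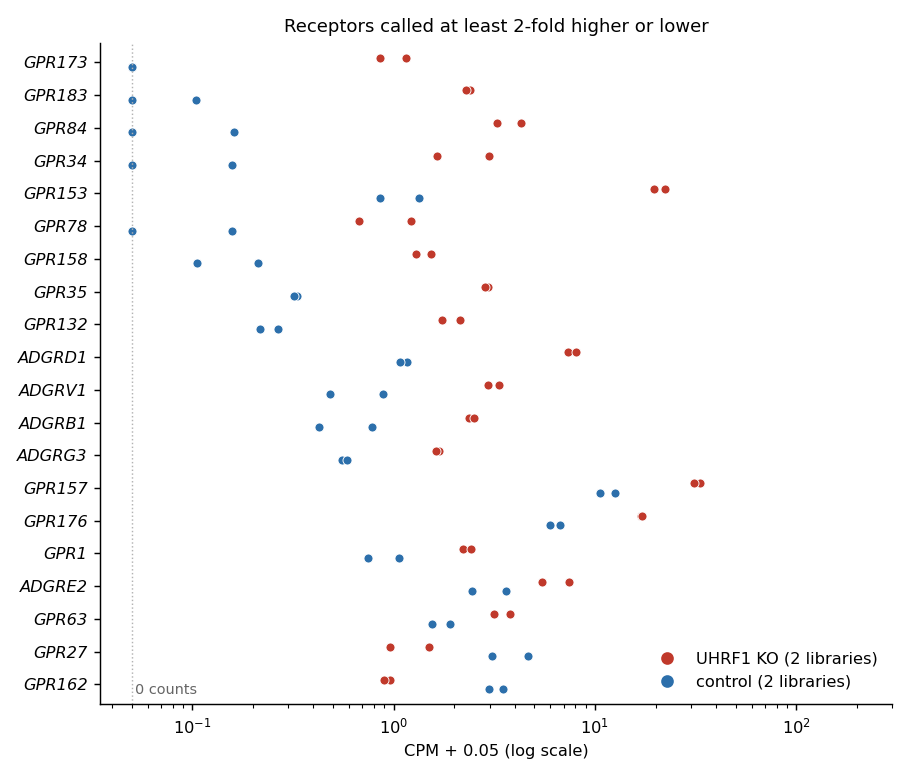
Level in each library (CPM + 0.05, log axis) of 20 of the 21 receptors called at least 2-fold higher (18 shown) or lower (2), ordered by fitted change, with 2 UHRF1 KO and 2 control libraries as points. The receptors were picked by their call, so that the 2 groups are apart in every row is no further test. Of all 17030 genes tested, 7075 had both UHRF1 KO libraries above both controls and 6547 had them below. Points on the dotted line had 0 counts.

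Among 4 proton-sensing receptors, GPR132, also counted among lysolipid receptors, was tested. It was at 1.68 and 2.09 CPM in UHRF1 KO, against 0.168 and 0.215 CPM in control, from 35 and 52 counts against 3 and 4. It was 9.60-fold higher (3.26 on the log2 scale, SE 0.483, edgeR adjusted p = 5.60e-07). Both controls lay below the filter's minimum and both UHRF1 KO libraries reached it, so the filter fixed the direction. GPR4 had 11 and 12 counts in UHRF1 KO and 3 and 1 in control, and GPR65 had 0 in all. With no filter GPR4 was called higher (edgeR adjusted p = 0.0385).

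Among class C orphans, GPR158, a receptor for glycine in brain, had 31 and 31 counts in UHRF1 KO and 1 and 3 in control, 11.8-fold higher (edgeR adjusted p = 3.75e-06). The fitted 3.56 on the log2 scale (SE 0.591) was 3.01 without control replicate 1 and 4.45 without control replicate 2. GPR179, a scaffold of retinal bipolar cells, had 17 and 16 counts in UHRF1 KO and 9 and 7 in control (edgeR adjusted p = 0.212). GPR158 and GPR179 reached the filter's minimum in UHRF1 KO alone, so neither could come out lower.

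GPR173, GPR27 and GPR85 form the SREB family, named for receptors conserved in brain, and its 2 tested members moved in opposite directions. GPR173 (X chromosome, 53049091 to 53080615) had 23 and 20 counts in UHRF1 KO and 0 in both controls. Against a floor of 3 counts over the 2 controls together it was at least 11.4-fold higher (edgeR adjusted p = 2.30e-06). Its direction was fixed by the filter, whose minimum only UHRF1 KO reached. GPR27 was at 0.914 and 1.45 CPM in UHRF1 KO, against 4.59 and 3.02 CPM in control, 3.15-fold lower (log2 fold change -1.66, SE 0.284, edgeR adjusted p = 6.47e-06). It shares 12.2% of its exon bases with EIF4E3 on the opposite strand, whose log2 fold change was 0.39, and its own value was -1.35 without control replicate 1. GPR85 had 1 count in each UHRF1 KO library and 0 and 1 in control.

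Among receptors that signal without an added ligand, GPR161, which represses Hedgehog signalling at the cilium, was at 18.6 and 18.1 CPM in UHRF1 KO and 24.6 and 25.0 CPM in control. It was 1.35-fold lower (log2 fold change -0.43, SE 0.087, edgeR adjusted p = 5.73e-05). GPR3, which raises cyclic AMP in oocytes, was not called (0.27 on the log2 scale, edgeR adjusted p = 0.316), and GPR6 and GPR12 had 0 counts in all libraries.

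Genes of the numbered series grouped as intracellular or atypical, several of them at the Golgi or lysosome, ranged widely in level. None of the 8 tested of 10 was called at least 2-fold higher or lower. GPR107, a Golgi protein, was at 169.9 and 166 CPM in UHRF1 KO and 151 and 152 CPM in control, and its relative GPR108 was at 40.6 and 41.2 CPM in UHRF1 KO and 34.8 and 34.5 CPM in control. Both were called higher, by 0.15 and 0.24 on the log2 scale (edgeR adjusted p = 0.00232 and 0.00273), but these values became -0.06 and -0.32 with libraries recentred. The lysosomal proteins GPR137 and GPR137B had log2 fold changes of 0.34 and 0.46, or -0.18 and 0.07 with libraries recentred. GPR155, a lysosomal cholesterol sensor, was at 1.83 and 1.97 CPM in UHRF1 KO, against 3.08 and 3.02 CPM in control. It was called lower (log2 fold change -0.68, SE 0.25, edgeR adjusted p = 0.0192), but the edgeR adjusted p was 0.0506 without control replicate 1, and 0.0854 and 0.0575 without either of the UHRF1 KO libraries. GPR89A and GPR89B, near-identical copies of a Golgi anion channel gene whose counts are uncertain one by one, had log2 fold changes of 0.13 and -0.12 and were not called. GPR89A was called higher without UHRF1 KO replicate 2 (0.50, edgeR adjusted p = 0.00201). GPR180 was not called (-0.16, edgeR adjusted p = 0.0829) but was called lower with libraries recentred (-0.18). GPR137C and GPR143 were not tested, with 26 and 3 counts in all.

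Of 8 receptors for peptides, chemokine-like ligands or zinc, 4 were tested and GPR1 was the one called. GPR1, a receptor for chemerin, was at 2.17 and 2.37 CPM in UHRF1 KO, against 1.01 and 0.700 CPM in control (log2 fold change 1.41, SE 0.333, edgeR adjusted p = 4.62e-04). GPR39, a zinc receptor (0.14), GPR37, proposed as a prosaposin receptor (-0.16), and GPR75 (-0.53) did not pass, with edgeR adjusted p of 0.409, 0.672 and 0.0791. GPR15, GPR182, GPR83 and GPR37L1 had 8, 11, 11 and 35 counts in all.

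The remaining 35 orphans held 12 tested genes, of which 5 were called higher, each at least 2-fold, and 1 lower. Of all genes tested 32.0% were called higher and 30.1% lower, and 15.4% were at least 2-fold higher. GPR153 (chromosome 1, 6247346 to 6260975) had the largest rise among the 41 receptors at the filter's minimum in all 4 libraries. It was at 19.5 and 22.1 CPM in UHRF1 KO, against 1.29 and 0.808 CPM in control, with 405 and 551 counts in UHRF1 KO and 23 and 15 in control. The rise was 19.9-fold (4.31 on the log2 scale, SE 0.18, edgeR adjusted p = 3.43e-20) and ranged on that scale from 3.83 to 4.66 over 14 alternative fits. In UHRF1 KO it held rank 12 of the 113 receptors per length, at 5.10 CPM per kilobase. GPR157, described at cilia of mouse neural progenitors, was at 33.2 and 30.9 CPM in UHRF1 KO, against 12.6 and 10.5 CPM in control, 2.79-fold higher (edgeR adjusted p = 4.86e-15). GPR176, which couples to the G protein Gz in the mouse circadian centre, was at 16.9 and 17.0 CPM in UHRF1 KO, against 5.94 and 6.68 CPM in control, 2.69-fold higher (edgeR adjusted p = 5.28e-12). These 3 receptors were detected in all 4 libraries. They were picked by their call, so that their groups were apart is no further test. GPR63 was at 3.75 and 3.09 CPM in UHRF1 KO and 1.85 and 1.51 CPM in control, a 2.03-fold rise that DESeq2 did not call (DESeq2 adjusted p = 0.0589). GPR78 had 13 and 29 counts in UHRF1 KO and 0 and 2 in control, a ratio of 16.7 (95% counting interval 4.36 to 143). Its fitted log2 value of 3.91 was 2.99 without control replicate 1. GPR78 reached the filter's minimum in UHRF1 KO alone, which fixed its direction. It shares 24.1% of its exon bases with CPZ on the same strand, which had 4 counts in all.

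GPR162 (chromosome 12, 6821545 to 6829972) was the receptor with the largest fall. It was at 0.914 and 0.843 CPM in UHRF1 KO, against 2.91 and 3.45 CPM in control, 3.61-fold lower (log2 fold change -1.85, SE 0.297, edgeR adjusted p = 2.24e-06). P3H3, which shares 114 exon bases with it on the same strand, had a log2 fold change of -1.07. GPR19, GPR20, GPR135, GPR141, GPR146 and GPR160 were tested and not called, with edgeR adjusted p from 0.0533 to 0.875. With libraries recentred GPR20 (-1.44 on the log2 scale) and GPR141 (-0.85) were called lower, and the rest were not called. GPR20 was the nearest to the threshold, at 1.203 and 1.00 CPM in UHRF1 KO and 2.02 and 1.67 CPM in control, and GPR146 had 17 and 16 counts in UHRF1 KO and 7 and 5 in control. Of the other 23 orphans 11 had 0 counts in all libraries and 12 had 2 to 11 in all. Of the 33 receptors with counts that were left out by the filter, 2 were called higher when no filter was used (ADGRL3, log2 fold change 2.38, and GPR4, 2.11) and 0 were called lower.

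The genes that carry the receptors' signals changed without one direction, against the 32.0% of all genes called higher and 30.1% called lower. Of 33 G protein subunits 24 were tested, with 11 higher and 9 lower (7 and 15 with libraries recentred) and a median log2 fold change of 0.04. Of those called higher, GNA15, GNAO1, GNGT1 and GNGT2 reached the filter's minimum in UHRF1 KO alone, so a rise was the only direction open to them. GNA15, the alpha subunit of blood cells that couples to many receptors, had 147 and 193 counts in UHRF1 KO and 0 and 1 in control, a ratio of 271 (95% counting interval 48.3 to 10740). The gamma subunits split, with GNG11 at 132 and 128 CPM in UHRF1 KO and 75.9 and 71.1 CPM in control, and GNG12 at 215 and 213 CPM in UHRF1 KO and 323 and 333 CPM in control. Outside the naming rule, and chosen after their values were seen, GNAO1 and GNGT2 had 20 and 48 (GNAO1) and 32 and 44 (GNGT2) counts in UHRF1 KO and 0 in all controls. Against the floor of 3 counts over the 2 controls, GNAO1 was at least 18.1-fold higher and GNGT2 at least 20.2-fold. Likewise chosen, GNAZ, which encodes the Gz alpha subunit, was at a mean of 2.33 CPM in UHRF1 KO and 5.92 CPM in control (log2 fold change -1.35), and GNAS, which encodes the stimulatory alpha subunit, had a log2 fold change of -0.35.

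Of 11 receptor kinases and arrestins, which switch receptors off, 7 were tested, with 4 higher and 1 lower (2 and 3 with libraries recentred). GRK5 was at 43.1 and 44.6 CPM in UHRF1 KO, against 17.4 and 16.0 CPM in control (log2 fold change 1.39, edgeR adjusted p = 1.91e-16), and GRK3 had a log2 fold change of 0.43. The arrestin gene ARRB2 was at 67.4 and 67.3 CPM in UHRF1 KO and 118 and 114 CPM in control, 1.73-fold lower. Of 21 RGS genes, which speed the turnoff of G proteins, 11 were tested, with 3 higher and 3 lower (0 and 6 with libraries recentred), among them RGS3, RGS20 and RGS12 with log2 fold changes of -0.83, -0.86 and -0.51. Of 14 effector enzymes 10 were tested, with 3 higher and 2 lower (1 and 6 with libraries recentred). The phospholipases PLCB1 and PLCB4, both on chromosome 20, had log2 fold changes of 1.55 and -0.50, and the adenylate cyclase ADCY7 had 0.50.

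Of 27 ligands and enzymes that act on ligands 20 were tested, with 9 higher and 2 lower (5 and 7 with libraries recentred) and a median of 0.06. Of all genes tested 32.0% were called higher and 30.1% lower. CD55, the complement regulator bound by ADGRE5, was at 371 and 362 CPM in UHRF1 KO, against 74.4 and 70.1 CPM in control, 5.08-fold higher (log2 fold change 2.34, SE 0.043, edgeR adjusted p = 3.42e-30). TGM2, the transglutaminase bound by ADGRG1, was at 1613 and 1595 CPM in UHRF1 KO, against 819.8 and 779.9 CPM in control (log2 fold change 1.01), and the teneurin TENM3, a ligand of latrophilins, was at 50.1 and 48.3 CPM, against 20.9 and 19.5 CPM (log2 fold change 1.29). Beyond the naming rule and chosen after their values were seen, CH25H, which starts the making of the oxysterols that bind GPR183, was at 5.73 and 5.50 CPM in UHRF1 KO and 1.85 and 2.48 CPM in control (log2 fold change 1.37). Of the other oxysterol enzymes listed, CYP7B1 had 4 and 9 counts in UHRF1 KO and 4 and 6 in control and was not tested. HSD3B7, which does not make the GPR183 ligand, was called higher (log2 fold change 0.75). Whether the ligand of GPR183 changed was not tested. TENM1 had 103 and 142 counts in UHRF1 KO and 1 in each control. It reached the filter's minimum in UHRF1 KO alone, and NRXN3, called lower, reached it in control alone, so the filter fixed both directions. Chemerin (RARRES2), the ligand of GPR1, had 0 counts in all libraries, and the surfactant protein SFTPD, a ligand of ADGRF5, had 10 in all, so these pairs could not be followed.

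**Figure D4:**
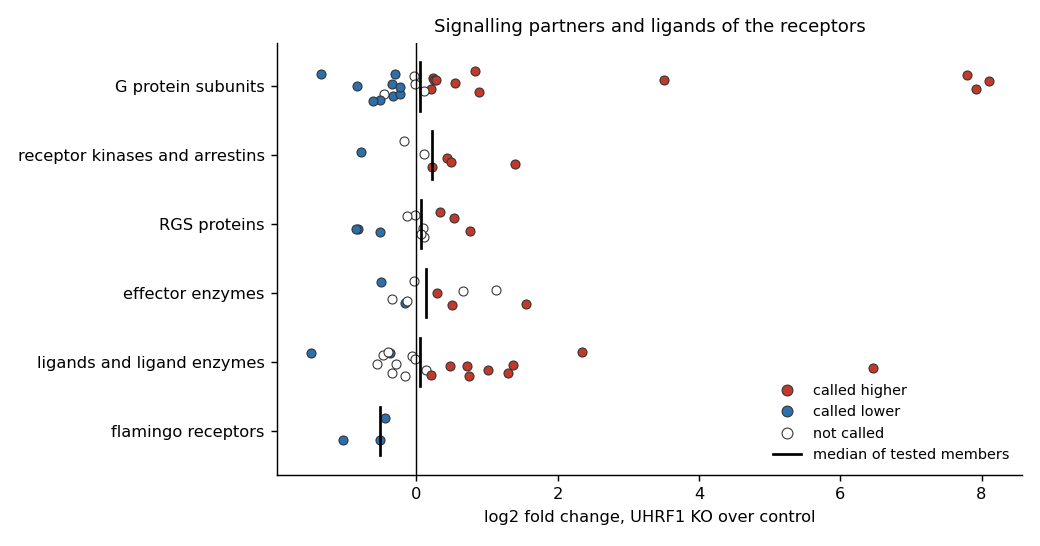
Fitted log2 fold change of UHRF1 KO over control for tested members of 6 lists, as points filled by call, with a line at each list's median. Medians lie from -0.52 (3 flamingo receptors) to 0.22 (receptor kinases and arrestins), and the points near 8 had 0 or 1 control counts, so their place depends on the fit.

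**Figure D5:**
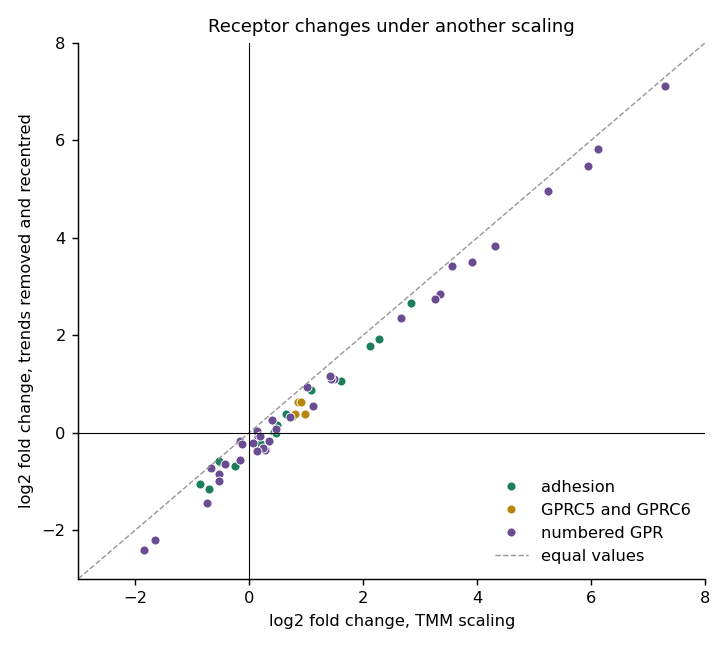
Log2 fold change of the 57 tested receptors with TMM scaling (x axis) and after removal of GC content and length trends and recentring of libraries (y axis), coloured by class. Values lie mostly below the dashed line of equality, and small positive values such as those of ADGRG1 (0.18 and -0.22) and GPR108 (0.24 and -0.32) cross 0.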

How the data were processed

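The authors deposited a table of whole-number read counts per Ensembl gene, not normalized. FastQC 0.10.1 and the build GRCh38 come from the submitters' processing notes; not given in the sources used here are the aligner, counting tool, annotation, strand and handling of multi-mapping reads. Per the labels' protocols, Trizol RNA went into SMARTER mRNA-Seq libraries. All 58735 identifiers were matched to GENCODE 29. For control columns the replicate number of the title was used, since both descriptions carry the same short name. Members and lists were chosen with earlier results of these data known.

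Tests used edgeR 4.0.16 (R 4.3.3): filterByExpr with the group (17030 genes), TMM, robust quasi-likelihood test, two-sided, Benjamini-Hochberg over all genes, threshold 0.05. Each SE divides the log2 fold change by the root of F. Levels per length divide by the union of exons. A chi-square per degree of freedom of 1.85 (UHRF1 KO pair) and 2.65 (control pair) showed more than counting noise, so replicates were kept apart. Intervals and floors cover counting error only, as reads carry no molecular identifiers.

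Named receptors were those called at least 2-fold with 1 CPM or more in the higher group, all called lower, and the 6 highest per length in control; others were named after their values were seen, to account for the members, of which a few are not reported here by name. Of each partner list up to 3 called genes with the smallest adjusted p were named, and any others after their values were seen. Alternatives were 3 other scalings, 2 other filters, DESeq2 1.42.0, limma-voom (limma 3.58.1), a replicate block, omission of single libraries, an adjusted p under 0.01 and a 2-fold minimum. Removal of GC content and exon length trends (natural splines, 5 degrees of freedom), with and without recentring, was added after seeing the data. The steps were tested on simulated data.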

Additional observations from a re-analysis of the deposited data

How the results depend on the processing

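Of the 32 receptors called higher, 22 were called in every one of 14 alternative fits (13 for genes lost to a stricter filter), as were 6 of the 8 called lower, all but ADGRA2 and GPR155. Leaving recentring aside, 25 of the 32 were. DESeq2 lost ADGRA2, ADGRB2, ADGRE1, ADGRG3, GPR63, GPR107, GPR108 and GPR155. With trends removed and libraries recentred, 17 receptors were lower, 7 adhesion receptors higher and 11 numbered GPR genes lower, while all genes called higher numbered 3388 and all genes called lower 8508. There ADGRG1 was at -0.22, GPR108 at -0.32, GPR107 at -0.06 and GPR137 at -0.18, each of the opposite sign, and ADGRE5 was at 0.00. For the lists in the order of the report (G proteins, kinases and arrestins, RGS, effectors, ligands), recentring gave 7, 2, 0, 1 and 5 higher and 15, 3, 6, 6 and 7 lower. A 2-fold minimum left 2616 (all genes called higher) and 432 (all genes called lower), 19 and 2 receptors, 5 and 0 adhesion, 0 GPRC5 genes higher, 2 numbered GPR genes lower, 4, 1, 0, 1 and 5 list genes higher and 1, 0, 0, 0 and 1 lower, and 1 flamingo receptor. DESeq2 called 1 effector lower, 0 ligands lower and 2 kinases and arrestins higher. Kinases and arrestins called lower numbered 2 with DESeq2 size factors, with no filter and with trends removed; ligands lower numbered 4 with trends removed and 1 with a minimum of 1 CPM; effectors lower numbered 1 with library totals. Leaving out 1 library gave 3 to 5 effectors higher and 1 to 3 lower, 1 to 2 ligands lower and 1 to 2 kinases and arrestins lower. The replicate number as a block gave 32 receptors higher and 8 lower; same-numbered libraries showed a correlation of deviations of -0.01 across genes, so the number is not taken as pairing. The cause of these differences was not tested. The 2 libraries a group and the low counts of many receptors limit the size of single changes.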
